A study of Mus musculus with 365 samples.

Results

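The cells described here are the Ly6D+ fraction of EPLM, the early progenitors with lymphoid and myeloid potential of mouse bone marrow. They were taken as all cells whose label names the Ly6D+ subpopulation, which gave 152 of the 365 cells in the table. The other 213 cells carry the label TN and enter no result. All cells came from the femurs of C57BL/6 mice with a Flt3 ligand transgene (Flt3Ltg), and the labels name a pool of 2 mice for each chip. The cells were sorted straight from marrow, with no culture or treatment, and the age and sex of the mice are not in the labels. Neither the promoter of the transgene nor the mice that went onto each chip are named. Single cells were caught on Fluidigm C1 microfluidic chips and their messenger RNA was copied over its full length. The Ly6D+ cells filled chips 4, 5 and 6 with 40, 60 and 52 cells, and each of these chips held only Ly6D+ cells. A chip is therefore the replicate here (n = 3), and an SD is the spread of 3 chip values, which may be technical. Mice, sort, chip and sequencing run cannot be told apart.

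Flt3 ligand is a growth factor that binds the receptor Flt3 on early progenitors and expands lymphoid and dendritic cells and their precursors. Ly6D is a small lipid-anchored surface protein that marks the step at which lymphoid progenitors of the marrow turn toward the B lineage. It is also found on precursors of plasmacytoid dendritic cells. Commitment to the B lineage is known to depend on the transcription factors Tcf3, Ebf1, Foxo1 and Pax5 and on signals through the interleukin 7 receptor, and the recombinase genes Rag1 and Rag2 are switched on along the way.

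Reads per cell ran from 278400 to 1854600, with a median of 941853. Each cell was thinned to 200000 reads, and a gene was called detected at 5 thinned reads, or 25 CPM, the thinned reads scaled to a common total. Genes detected per cell averaged 2833, 2441 and 2786 on chips 4, 5 and 6 (2687 ± 214, SD, n = 3). Chip 5 lay lowest, and it held all 6 of the cells with fewer than 1500 genes. The 3 chips also differed in some genes, most clearly those of the interferon response, which were low on chip 6, as described at the end. No 2 cells had identical counts. Genes with near-identical copies elsewhere in the genome are uncertain in this table, since Gapdh, a glycolytic enzyme that cells make in common, was detected in 0 of 152.

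The cells carried the transcripts that define the population. Ly6d was detected in 95%, 90% and 98.1% of cells on chips 4, 5 and 6 (94.4% ± 4.08, SD, n = 3), at mean levels of 2843, 2577 and 2679 CPM. The 3 chips lay close together. Dntt, the gene of the terminal transferase, an enzyme that lengthens V(D)J joints, was detected in 97.5%, 86.7% and 96.2%. Gimap6, a small GTPase of the immunity-associated family, was detected in 97.5%, 90% and 92.3%. Il7r, the interleukin 7 receptor chain, was less common at 80%, 63.3% and 67.3% of cells. Blnk, the adaptor that links the pre-B cell receptor to its downstream kinases, was found in 70%, 55% and 42.3% and was the most uneven of the 5 genes. All 5 were detected in 59 cells, 4 in 57, 3 in 24, 2 in 8, 1 in 2 and none in 2. Ly6d was missing in 2, 6 and 1 cells of the 3 chips, although the sort had selected its protein. The 5 cells of chip 5 without any Ly6d read lay between 932 and 2156 genes, below the chip's mean. The 1 such cell on chip 4 had 2448 genes and the 1 on chip 6 had 1525, also below their chip means. The part of detection in the missing Ly6d of these cells was not tested.

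**Figure D1:**
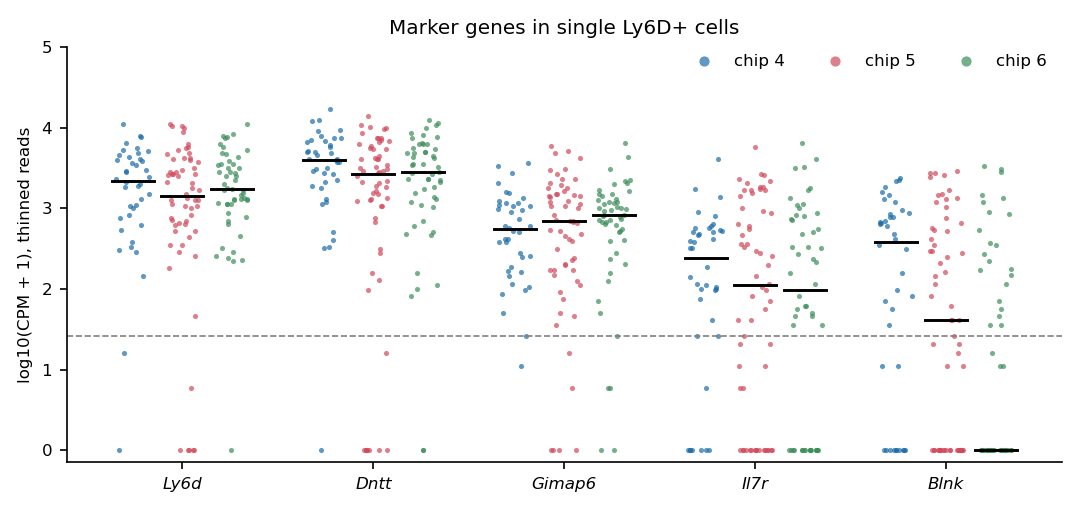
Level of the 5 marker genes in each Ly6D+ cell, as log10(CPM + 1) of thinned reads, by chip; each point is a cell, the black bar is the median of the chip, and the dashed line is the detection limit of 25 CPM. Ly6d, Dntt and Gimap6 are above the line in nearly all cells of each chip, while Il7r and Blnk have many cells at 0.

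Levels were compared between genes in TPM, which divides reads by gene length before scaling. B2m, the light chain of MHC class I, was highest at 7790, 9749 and 8888 TPM on chips 4, 5 and 6 (8809 ± 982, SD, n = 3). Actb, cytoplasmic actin, followed at 7352, 8260 and 10266 TPM, and Plac8, a cysteine-rich protein of early progenitors and myeloid cells, at 8234, 9432 and 8135 TPM. Ly6d itself came next at 8805, 8037 and 8148 TPM (8330 ± 415, SD, n = 3). The means of these 4 genes lay within the SD of B2m and Actb, so their order is not resolved. Below them came Ly6e, another member of the Ly6 family, at 6090, 5526 and 5075 TPM. Cd69, an early activation antigen that holds lymphocytes in tissues, averaged 5224 ± 1188 TPM and was highest on chip 6. Hsp90ab1, a chaperone, averaged 4997 ± 608 TPM, and Dntt 3993 ± 651 TPM. Among the other leading genes were Gpx1 with 4324 ± 429 TPM, Arhgdib with 4178 ± 430, Eef1a1 with 3877 ± 677, Tmsb4x with 3450 ± 146.7, Crip1 with 3111 ± 93.3, Rack1 with 3081 ± 450 and Slc25a5 with 2670 ± 355. They encode a peroxidase that removes hydrogen peroxide, an inhibitor of small GTPases, an elongation factor, an actin-binding peptide, a LIM-domain protein, a ribosome-bound scaffold and the mitochondrial ADP/ATP carrier. Of the 50 highest genes, 18 encoded ribosomal proteins, 31 were other named genes and 1 had no symbol. These 50 held 17.3% ± 0.733 of all TPM. Without the division by length only 8 of the 50 highest were ribosomal.

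The most even genes were mostly those of the ribosome. Detection in 95% of cells or more on every chip was met by 110 genes, 58 of them ribosomal and 51 others with a symbol. The coefficient of variation (CV) over the cells of a chip, the SD divided by the mean, ran from 0.333 to 1.45 among them, with a median of 0.436 for ribosomal genes and 0.578 for the others. Rps19, a protein of the small subunit, had the lowest CV at 0.333 ± 0.0558 (SD, n = 3), and its cells lay between 70 and 1350 CPM. Among the next were Rps14 at 0.336, Rpl32 at 0.353, Rpl41 at 0.358, Rpl37 at 0.365, Rpl4 at 0.373, Rps18 at 0.373 and Eef1a1 at 0.373. Among the genes named above for their level, Ly6e had a CV of 0.421, Actb 0.429, Plac8 0.460, B2m 0.462, Hsp90ab1 0.498 and Tmsb4x 0.743. Ly6d, the marker of the gate, varied more at 0.973, and so did Dntt at 0.871 and Cd69 at 1.004. At the other end of the list stood Son, an RNA splicing protein, with a CV of 1.45, Lars2, a mitochondrial leucyl-tRNA synthetase, with 1.12, and Malat1, a nuclear noncoding RNA, with 1.04. The list rested on chip 5 more than on the other chips: without chip 5 it held 180 genes. A limit of 90% in place of 95% raised it from 0.891% to 1.57% of the 12352 detected genes, and 28 genes had a lowest chip share between 92% and 95%.

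Of 86 transcription factors examined, 22 were detected in at least 50% of cells as the mean of the 3 chips, 20 in 20% to 50% and 44 in fewer. The largest class examined, 27 lymphoid and multipotent factors, held 13 of these 22. The immediate early class had 5 of 9, the dendritic and myeloid class 3 of 13, and the T and innate lymphoid class 1 of 12. Foxp1, a forkhead factor needed for B cell development, led at 97.5%, 96.7% and 98.1% of cells on chips 4, 5 and 6. Mef2c, a MADS-box factor of lymphoid progenitors, was detected in 97.5%, 86.7% and 98.1%. Ikzf1 (Ikaros), which opens lymphoid genes, was detected in 92.5%, 75% and 92.3%. In both genes chip 5 was lowest, as it was in genes per cell. The ETS factors Elf1 and Fli1 were detected in 94.2% ± 5.83 and 84.3% ± 0.873 of cells (SD, n = 3). Tcf4, an E protein that also serves plasmacytoid dendritic cells, reached 91% ± 1.35, Myb, a progenitor factor, 86% ± 5.44, Satb1, a chromatin organizer, 77.3% ± 9.20 and Bcl11a, a zinc finger factor of lymphoid progenitors, 75.8% ± 1.44. Runx1, Myc, Etv6 and Hhex were found in 68.6%, 64.4%, 60.1% and 58% of cells.

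The factors of B lineage commitment were rarer. None of the 11 examined reached 50% of cells, and 5 lay between 20% and 50%. Ebf1, which commits cells to the B lineage, was detected in 45%, 36.7% and 44.2% of cells on chips 4, 5 and 6 (42% ± 4.61, SD, n = 3). Bach2, a repressor of myeloid genes, was detected in 30%, 38.3% and 44.2%, and Sox4, an HMG-box factor of early B cells, in 27.5%, 31.7% and 26.9%. Foxo1, which acts beside Ebf1 at B lineage genes, was detected in 25%, 23.3% and 30.8%, and Tcf3, the E protein E2A, in 17.5%, 26.7% and 30.8%. The chip values of these 4 genes overlapped, and their order is not resolved. Pax5, which holds cells in the B lineage, was detected in only 4 of 152 cells, Pou2af1, a coactivator of octamer factors, in 11 and Lef1, a Wnt pathway factor, in 15.

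Factors of other lineages were partly present. Irf8, a factor of dendritic cells, monocytes and B cells, was detected in 62.5%, 68.3% and 71.2% of cells, at 679, 896 and 665 CPM. Runx2, which supports plasmacytoid dendritic cells, was found in 60.9% ± 8.0 and Zeb2, a zinc finger repressor of dendritic and myeloid cells, in 51.5% ± 6.35. Runx3, a factor of T and innate lymphoid cells, was found in 59.6% ± 10.7, Ets1, an ETS factor of lymphocytes, in 44.1% ± 10.3 and Id2, an inhibitor of E proteins, in 37.6% ± 7.59. The stem cell factors Lyl1, Lmo2 and Meis1 were found in 40.7%, 38.2% and 26%. Of the immediate early genes, which respond within minutes to stimulation or handling, Fos was detected in 82.8% ± 2.13 and Jun in 74.7% ± 6.58. Rarely seen were Gata3, a T cell factor, in 18 cells, Spi1 (PU.1), a myeloid and B cell factor, in 13, Tcf7 in 8, Cebpa, a granulocyte and monocyte factor, in 4, and Bcl11b, a T cell commitment factor, in 1. Ikzf3, Zbtb46, Cebpe, Eomes, Tbx21, Rora, Gata1, Gata2, Mecom and Klf1 had no read in any of the 152 cells, so at most 1.97% of such cells would carry a read. Such a limit covers counting error only.

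**Figure D2:**
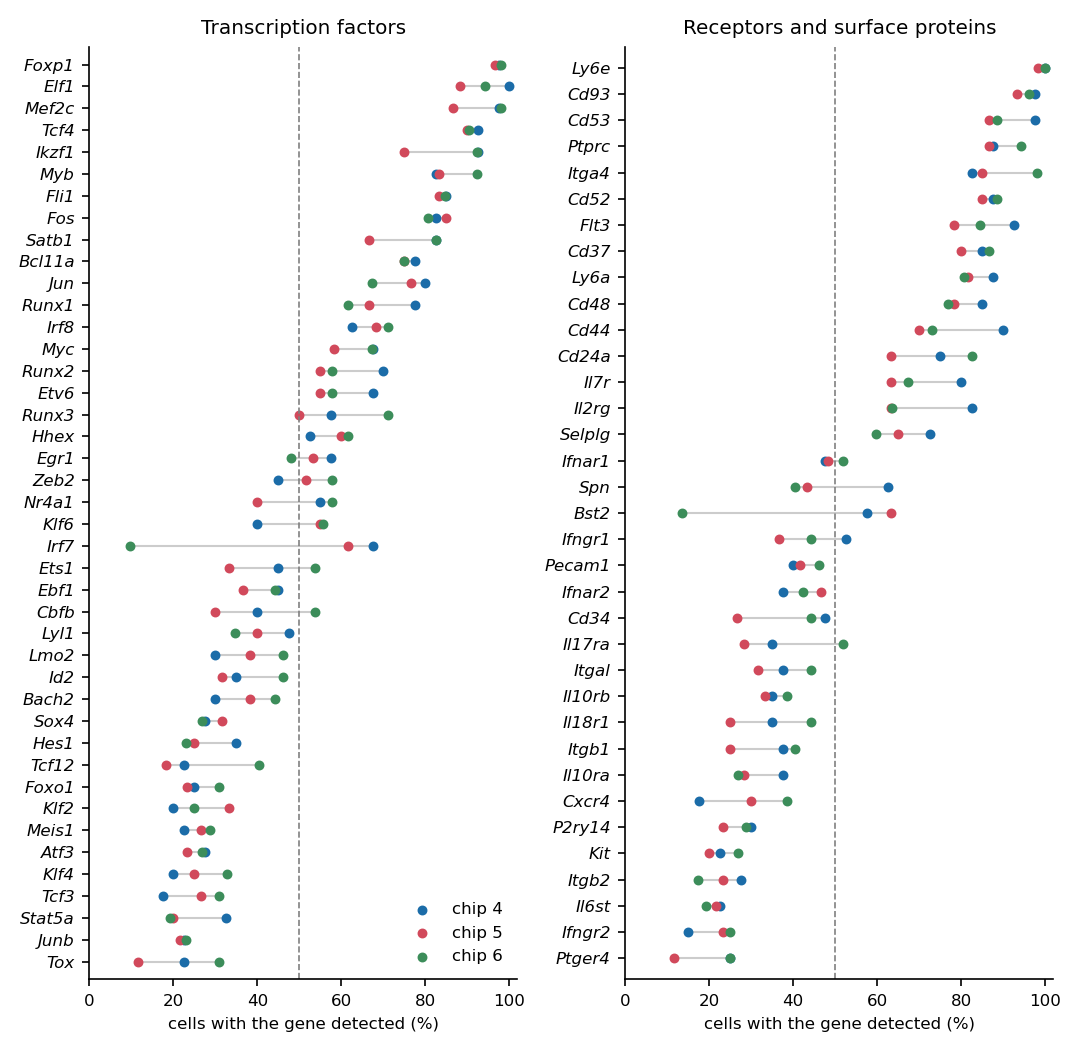
Share of Ly6D+ cells in which each gene was detected, on chips 4, 5 and 6, for the transcription factors (left) and the receptors and surface proteins (right) drawn from those with a mean of 20% or more; the dashed line marks 50%. Most genes keep their place on all 3 chips, and the widest spreads are those of Irf7 and Bst2, which are low on chip 6.

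Of 83 receptors and surface proteins examined, 16 reached 50% of cells, and 13 of these were adhesion and surface proteins. The share of all genes that reached 50% of cells was not counted. Members of this and the other lists were chosen, so their counts describe each list and do not rank the classes. Only 3 of 38 cytokine receptors did so: Flt3, the receptor of the transgenic ligand, at 92.5%, 78.3% and 84.6%, Il7r as given above, and Il2rg, the common gamma chain that pairs with Il7r, at 82.5%, 63.3% and 63.5%. Chip 4 was highest in each of the 3. The interferon receptor chains Ifnar1, Ifngr1 and Ifnar2 followed at 49.3%, 44.5% and 42.2%. Kit, the stem cell factor receptor, was detected in 22.5%, 20% and 26.9%, and Csf1r, the receptor of macrophage growth factor, in 8 cells. No chemokine or lipid receptor reached 50%. Cxcr4, which holds progenitors in the marrow, was the most common of these at 17.5%, 30% and 38.5%, P2ry14, a receptor for sugar nucleotides, was found in 27.4%, Ccr7, which guides cells to lymph nodes, in 12.4% and Ccr9, which guides cells to thymus and gut, in 10.2%. Among surface proteins Ly6e was detected in 99.4% of cells, Cd93, the antigen read by the AA4.1 antibody on early B cells, in 95.7%, Cd53, a tetraspanin, in 90.9%, Ptprc (CD45) in 89.5% and Itga4, an integrin chain, in 88.5%. Cd24a was detected in 75%, 63.3% and 82.7%, and Cd34, a progenitor antigen, in 47.5%, 26.7% and 44.2%, both lowest on chip 5. At a detection limit of 1 read, 25 of the 83 reached 50% of cells.

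Parts of the pre-B cell receptor pathway were present in uneven measure. The signalling proteins were the most common: Plcg2, a phospholipase, was detected in 68.4% ± 10.7 of cells, Btk, a kinase, in 55% ± 8.66 and Syk, the kinase that acts first, in 53% ± 2.90. The receptor's own chains were rarer. Cd79a (Ig alpha) was detected in 37.5%, 36.7% and 36.5% of cells on chips 4, 5 and 6, a spread of 0.522 percentage points (SD, n = 3). Cd79b (Ig beta) was detected in 27.5%, 43.3% and 48.1% and varied far more, with an SD of 10.8 points. Of the surrogate light chain genes Igll1 was found in 14% ± 2.04, Vpreb1 in 27.5%, 18.3% and 19.2% and Vpreb2 in 25%, 20% and 23.1%. Vpreb1 and Vpreb2 are near-identical copies, so the split of reads between them is uncertain. Vpreb3, a related gene, was found in 15.1% ± 0.222. In all, 6 of the 19 measured members of this list reached 50% of cells and 7 lay between 20% and 50%. Of the recombination genes Rag1 was detected in 30%, 41.7% and 36.5%, Rag2 in 27.5%, 33.3% and 32.7%, and both were far rarer than Dntt. Xrcc6, the Ku70 end-binding protein, was found in 86% ± 5.36, while Xrcc5, its Ku80 partner, was detected in 7.5%, 1.67% and 5.77%. Among 10 Notch pathway genes, the receptors Notch2 and Notch1 were detected in 72.3% ± 9.02 and 64.8% ± 10.6 and the target Hes1 in 27.7% ± 6.40, while the targets Dtx1, Hey1 and Ptcra had no read.

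Markers of other cell types were counted as cells with 3 or more detected members of a list. For the plasmacytoid dendritic list of 14 genes these were 38 of 40, 48 of 60 and 32 of 52 cells. That list holds Irf7 and Bst2, which also respond to interferon, and without both the counts were 28, 38 and 29. Its widespread members were Tcf4, Cox6a2, a muscle-type cytochrome oxidase subunit, at 76.4%, and Runx2. Siglech, the lectin that defines these cells, was detected in 17.5%, 18.3% and 13.5%. For the granulocyte and monocyte list the counts were 18, 26 and 32 cells, carried by Ly86 at 81.7%, Tyrobp at 55.6% and Fcer1g at 55.5%, which encode a receptor partner and 2 signalling adaptors of many blood cells. Mpo, the granule enzyme that defines granulocyte precursors, was found in 12.9% ± 2.72, and Elane and Ms4a3 had no read. The list of conventional dendritic cells and MHC class II gave 25, 34 and 35 cells, through Cst3 at 82.5% and H2-DMa at 69.6%, while Itgax was found in 7 cells and Zbtb46 had no read. The T lineage list gave 9, 9 and 17 cells: Lck, a kinase of lymphocytes, was found in 71.6% and Cd27, a costimulatory receptor, in 50.7%, while Cd3e and Cd3g had no read. Only 1 cell reached 3 markers of natural killer cells, although Nkg7 was found in 74.4%. No cell reached 3 erythroid, megakaryocyte or mast cell markers, and 3 cells reached 3 markers of plasma or mature B cells. Of the 13 erythroid, megakaryocyte and mast cell genes 10 had no read, among them the globin genes Hba-a1, Hba-a2 and Hbb-bs. Globin genes have near-identical copies, so their absence is as uncertain here as that of Gapdh. The number of plasmacytoid markers rose with genes detected per cell (Spearman rho over the cells of chips 4, 5 and 6: 0.516, 0.418 and 0.350), as did that of granulocyte and monocyte markers (0.698, 0.541 and 0.527).

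Transcripts of dividing cells were common. Mki67, a protein of dividing cells, was detected in 55%, 41.7% and 48.1% of cells, and Top2a, the topoisomerase that untangles replicated DNA, in 62.5%, 53.3% and 59.6%. Replication genes were broader: 11 of 20 reached 50% of cells, and the median cell had 11.5, 9 and 11 of the 20. For the 20 genes of G2 and mitosis the median cell had 3, 2 and 3, but the cells ranged from 0 to 20, and 9, 17 and 12 cells had 10 or more. The counts of both lists rose with genes detected per cell, with rho of 0.562, 0.786 and 0.485 for replication and 0.460, 0.553 and 0.613 for mitosis.

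Some genes were either undetected or high, with few cells between. A gene was called on-off where at least 20% of cells on each chip lay under 25 CPM, at least 20% lay at 250 CPM or more, and under 15% as the mean of the chips lay between. There were 25 such genes among the 524 that met both 20% limits, whose median share between was 28.03%. Since the rule used these shares, the 25 are given as a description. Whether undetected cells lacked the transcript or it was missed was not tested. Over the 3178 genes detected in 20% to 80% of cells on each chip, the median share between was 25.02%. Their 5th percentile was 14.49%, close to the limit of 15%. Septin11, a cytoskeletal GTPase, had the fewest cells between, 4.81%, with 67.5%, 58.3% and 65.4% of cells high. Cd79a had 8.31% between, 62.5%, 63.3% and 63.5% low and 30%, 25% and 30.8% high, and its detected cells had a median of 710 CPM. Ebf1 had 13.9% between, with 55%, 63.3% and 55.8% low and 32.5%, 26.7% and 25% high. That both states appeared on all 3 chips follows from the rule. Their shares in these 3 genes were alike between the chips.

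The other on-off genes had varied roles. Tnfrsf26, a decoy receptor of the tumour necrosis factor family, had 8.12% of cells between, Milr1, an inhibitory allergin receptor of mast cells, 9.77%, and Egr1, an immediate early factor, 10.4%. Top2a and Rrm1, a subunit of ribonucleotide reductase, both genes of dividing cells, had 13.1% and 13.5% between, and Bid, a trigger of cell death, 14%. Of the first 15 the others were Zfp512b, Spcs3, Hectd4, Abcf2, Mn1, Rapgef2, Mier3, Rnf169 and Tmem43, with 7.93% to 13.4% between. Just outside the limit lay Abcg1 and Zfp266 with 15.04%, Rrm2 with 15.2% and Irf8 with 15.7%. The number of such genes depended on the limits: detection at 1 read left 3 and at 20 reads 417, and a high limit of 100 CPM gave 711 and of 500 CPM gave 1. Without chip 4 there were 43 and without chip 6 there were 41.

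**Figure D3:**
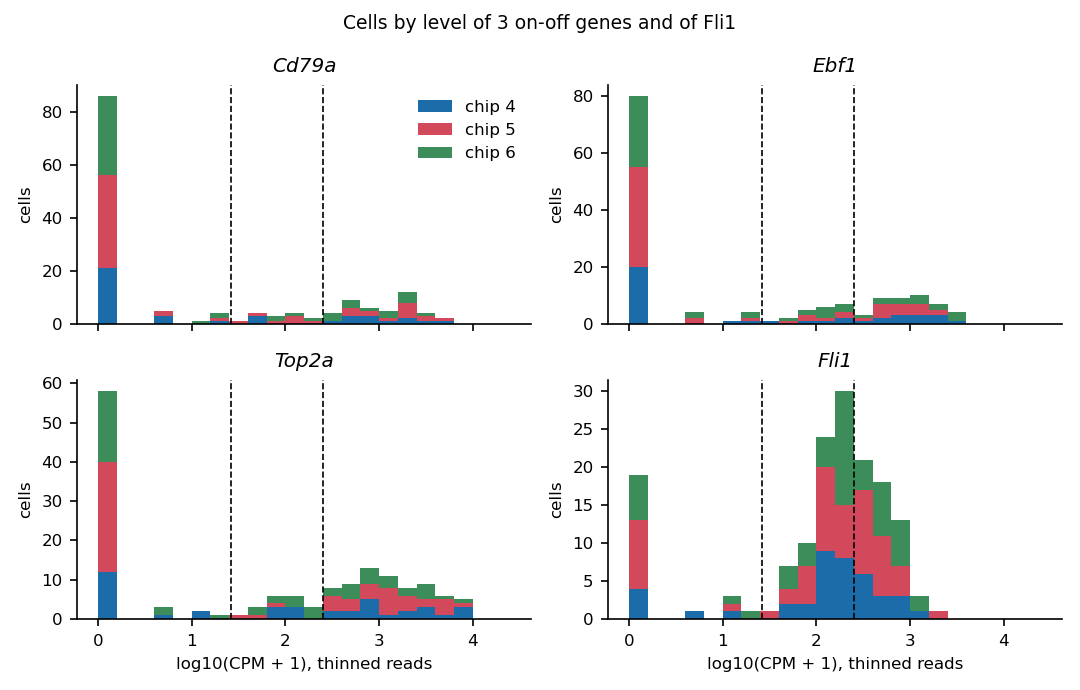
Number of Ly6D+ cells by level of Cd79a, Ebf1, Top2a and Fli1, as log10(CPM + 1) of thinned reads, stacked by chip; dashed lines mark the detection limit of 25 CPM and the high limit of 250 CPM. Cd79a, Ebf1 and Top2a have a peak at 0 and a second group above the high limit, while the cells of Fli1 gather around the high limit.

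Genes that varied together were sought within chips. Spearman rho over the cells of a chip was computed for all pairs of 3927 genes, and a pair was chosen where rho was 0.4 or more on both chip 4 and chip 5. Chip 6 was not used to choose pairs and is given beside each. The cells of a chip share its capture and library batch, so rho is given as a description with no test. Of 7708701 pairs 3042 were chosen, and 3041 had a value on chip 6. There 2752 of the chosen pairs (90.5%) were positive and 1086 (35.7%) were at 0.4 or more, against 60.2% and 0.588% of all pairs. Among the chosen pairs 91 were genes that overlap in the RefSeq annotation, whose reads cannot be told apart without strand. When genes detected per cell was held constant, 1089 pairs were chosen. With chips 4 and 6 choosing, without chip 5, the number was 1646.

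The chosen pairs joined into 254 groups, and 7 had 6 genes or more. The largest had 722 genes. At a stricter rho of 0.5 its core held 2.60% of the 3927 genes, and among them were 13 of the 14 listed genes of G2 and mitosis whose pairs were computed. Of 17 such replication genes it held 3. The listed genes were a small share of the core, 12.7% and 2.94%, but each list holds only 20 genes. The core also held unlisted genes of mitosis, such as Cdca8, Kif15 and Ndc80, and of replication, such as Mcm10, Lig1 and Rfc4. The share of all cell division genes in the core was not counted. On chip 6, 655 of the 656 pairs of that core were positive, with a median rho of 0.471. For Mki67 the closest partners were Cdca8, a protein of the chromosomal passenger complex, with rho of 0.686, 0.710 and 0.528 on chips 4, 5 and 6, and Birc5, its partner survivin, with 0.651, 0.764 and 0.715. Cenpe, a kinetochore motor, had 0.665, 0.676 and 0.610, and Kif15, a spindle motor, had 0.668, 0.653 and 0.628.

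A second group held several genes of B lineage entry and is called the B lineage group here. Its 13 genes were Ablim1, Bin1, Blnk, Cd52, Cd79a, Cd79b, Cecr2, Ebf1, Foxo1, Mzb1, Rag1, Rag2 and Vpreb2. All 23 of its pairs were positive on chip 6, 15 were at 0.4 or more, and the median was 0.492. With chips 4 and 6 choosing, the group that held Cd79a and Rag1 had 25 genes, 11 of them among these 13. Its median on chip 5, held out, was 0.3173. With chips 5 and 6 choosing, that group had 15 genes, 10 of them among these 13, and a median on chip 4 of 0.51. Cd79a with Rag1 had rho of 0.717, 0.601 and 0.693 on chips 4, 5 and 6. Cd79a with Cecr2, a chromatin remodelling subunit, had 0.632, 0.627 and 0.699, and Rag1 with Cecr2 had 0.644, 0.595 and 0.605. Ebf1 with Cd79a, one of its known targets, was less even at 0.489, 0.318 and 0.762. With Cd79b, another target, Ebf1 had 0.495, 0.412 and 0.474. Cd52 and Bin1, a membrane-bending protein, had the weakest ties on chip 6.

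The group was spread unequally over cells. The median cell had 5, 4 and 5 of the 13 genes on chips 4, 5 and 6, and the cells ran from 1 to 13, 0 to 13 and 0 to 13. At 8 genes or more were 12 of 40, 14 of 60 and 15 of 52 cells, and at 3 or fewer were 16, 22 and 19. The number fell with genes detected per cell (rho of -0.657, -0.238 and -0.297), the opposite sign to that of the cell division lists. Co-detection showed the same genes cell by cell: Cd79a was detected in 42 of 56 cells with Rag1 and in 14 of 96 without, and in 38 of 63 cells with Ebf1 and 18 of 89 without. On each of the 3 chips the share was higher with the partner than without. The group was chosen on chips 4 and 5, so for Cd79a with Rag1 the values there restate the choice. On chip 6, not used to choose, Cd79a was detected in 14 of 19 cells with Rag1 and 5 of 33 without. For Ebf1 the chip 6 values were 17 of 23 with and 2 of 29 without. Doublets were not called, and their part in cells with markers of several lineages was not tested. Holding genes detected per cell constant kept 8 of the 13 genes in a group of 8. Choosing on chips 4 and 6 gave 25 genes, 11 of them shared.

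Irf8 and Ly6d varied together. Ly6d with Irf8 had rho of 0.568, 0.560 and 0.436 on chips 4, 5 and 6, the highest partner of Ly6d by chips 4 and 5. Fcer1g was second for Ly6d at 0.476, 0.519 and 0.112, and was low on chip 6. Irf8 with Siglech had 0.649, 0.539 and 0.452. In cells with Irf8, Siglech was detected in 7 of 25, 11 of 41 and 7 of 37, and in cells without Irf8 in 0 of 15, 0 of 19 and 0 of 15.

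Irf8 ran against Rag1, with rho of -0.609, -0.553 and -0.450, and of -0.539, -0.491 and -0.352 with genes detected per cell held constant. Rag1 was detected in 3 of 25, 12 of 41 and 10 of 37 cells with Irf8, and in 9 of 15, 13 of 19 and 9 of 15 without. On each chip it was more common in the cells without Irf8. Rag1 was the lowest partner of Irf8 by chips 4 and 5, so only chip 6 was not used in that pick. Against the 13 genes of the B lineage group Irf8 was negative in 13, 12 and 11 on chips 4, 5 and 6, with a median rho of -0.38, -0.265 and -0.189. Ly6d against Rag1 had -0.420, -0.537 and -0.062, so that relation was near 0 on chip 6. Over the 13 genes Ly6d was negative with 13, 10 and 8, and the median rho was -0.378, -0.221 and -0.0622. Pairs of Irf8 with Siglech and of Dntt, Ebf1 and the B lineage genes that are not nearest partners were picked after their values had been seen.

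**Figure D4:**
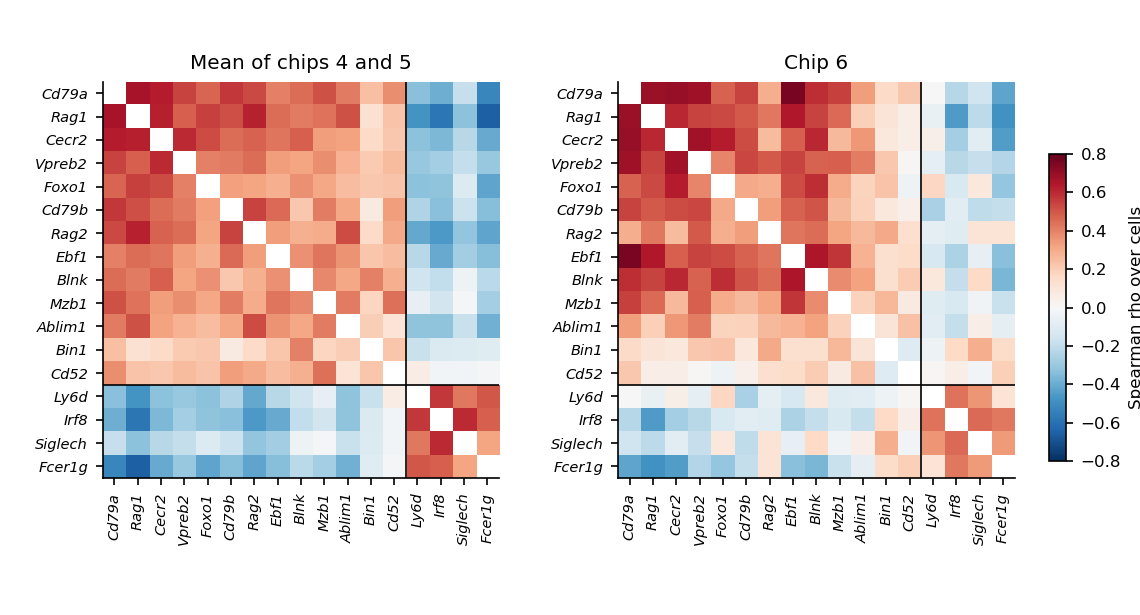
Spearman rho over cells between the 13 genes of the B lineage group and Ly6d, Irf8, Siglech and Fcer1g, as the mean of chips 4 and 5 (left) and on chip 6 (right); black lines part the group from the other 4 genes. The group is positive within itself on both sides apart from Cd52 with Foxo1 and with Bin1 on chip 6, and most of its values with Irf8 are negative.

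Among the other markers, Dntt with Gimap6 had rho of 0.571, 0.442 and 0.329 on chips 4, 5 and 6, and Dntt with Cd69 0.444, 0.352 and 0.288. Dntt with Mki67 had -0.390, -0.279 and -0.292. Its lowest partners by chips 4 and 5 were Cep57, a centrosomal protein, at -0.417, -0.414 and -0.015, Kif23, a motor of cytokinesis, at -0.531, -0.377 and -0.143, and Aurkb, a mitotic kinase, at -0.376, -0.408 and -0.028. On chip 6 Cep57 and Aurkb were near 0. Gimap6 had 0.360, 0.363 and 0.466 with Cd79a and 0.338, 0.478 and 0.394 with Rag1. Il7r with Blnk had 0.295, 0.309 and 0.541, and Blnk with Cecr2 had 0.427, 0.531 and 0.603.

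Between chips the clearest difference was in genes of the interferon response, which cells switch on after interferon binds its receptor. Of 5745 genes with 50 CPM or more on their highest chip, 41 (0.714%) differed at least 4-fold in mean CPM and by 30 percentage points in detection between the highest and the lowest chip. Chip 6 was lowest in 30 of these (0.522% of the 5745), chip 5 in 9 and chip 4 in 2. Oas2, an enzyme that senses viral RNA, had 201.4, 554 and 2.40 CPM on chips 4, 5 and 6. Irf7, a factor that amplifies interferon production, had 197.3, 325 and 8.85 CPM. Mx1, an antiviral GTPase, was detected in 32.5%, 38.3% and 3.85% of cells. In each of the 3 genes chip 6 lay far below both other chips. Gm4951, an interferon-inducible GTPase, had 70.3, 171.5 and 0 CPM and was detected in 25%, 30% and 0% of cells. Its fold of 595 for chip 5 over chip 6 was set by a floor of 3 reads over the chip. With the gene in a minority of cells, that fold is no lower bound. Among the first 15 genes by fold were also Dhx58, Phf11d, Slfn2, Oasl1, Iigp1, Xaf1, Bst2, Oas3 and Parp14, all lowest on chip 6. The exceptions were Btbd9, detected in 40%, 3.33% and 15.4% of cells, and Cenpo, a centromere protein, with 36.1, 10.8 and 110 CPM, both lowest on chip 5.

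All 15 genes of the interferon list were lowest on chip 6, and 31% of all 5745 genes were. The list's median fold between chips was 9.01, against 1.86 over the 5745 genes. Of its 15 genes 8 passed both limits, beside 0.522% of the 5745 that did so with chip 6 lowest. The list was not held to the 50 CPM required of the 5745, which 13 of its genes met. Usp18, a protease that restrains the response, had 501, 1237 and 137.3 CPM. The median cell had 6, 5 and 1 of the 15 genes, and 27 of 40, 33 of 60 and 3 of 52 cells had 5 or more. A group of 13 genes with Usp18 had 12 pairs chosen for their rho on chips 4 and 5. On chip 6, Gm4951 with Ifih1 had no value. Of the other pairs 4 were positive, and the median was -0.046. The highest of the 4 was Akr1b3 with Gm6644 at 0.968, and the next was Usp18 with Xaf1 at 0.196. Few cells of chip 6 carry some of these genes: Usp18 was detected in 19.2%, Xaf1 in 13.5% and Gm4951 in 0 of its cells. The labels do not say whether mice, sort or run changed with the chip, so their parts in this difference cannot be told apart. Without chip 6, 6 genes differed between the other chips. Without chip 5 there were 18 and without chip 4 there were 27.

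**Figure D5:**
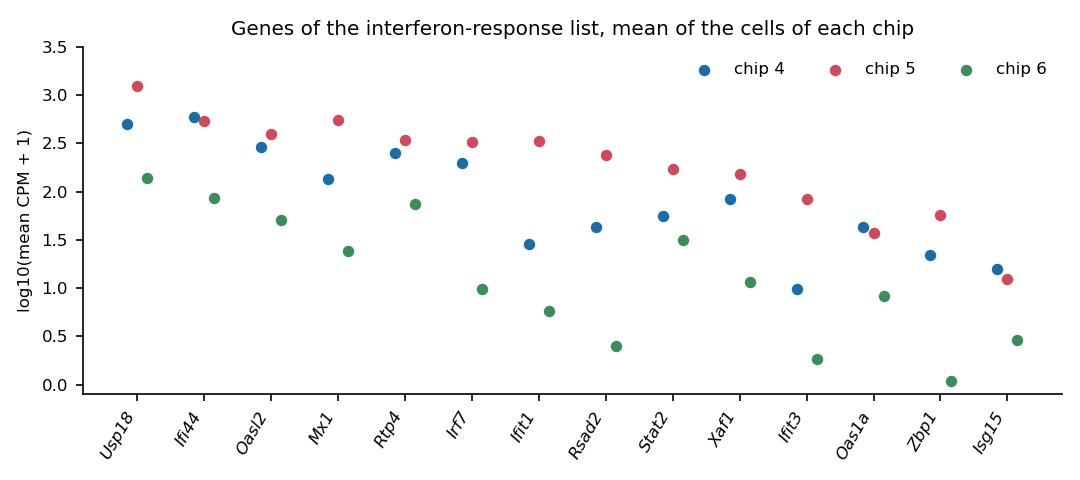
Mean level of genes of the interferon list over the cells of each chip, as log10(mean CPM + 1). Chip 6 is the lowest point for every gene drawn.

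Promoters of the genes low on chip 6 are shown because letters of the interferon-stimulated response element recur in them. The motif searched was GAAA repeated after a gap of 2 bases of any kind, on both strands, in windows from 250 bases before to 50 after the start site, from RefSeq on GRCm38.p6. Of the 30 genes 21 matched the table with 25 promoters, and 9 promoters (36%) of 8 genes held the motif: Bst2, Cybb, Gbp7, Gm12250, Ifitm3, Irgm1, Oas3 and Trim30a. Of all 32851 promoters 3.44% held it, and so did 0 of 8 promoters of the genes lowest on chip 4 or 5. Of the interferon list 10 promoters were in the table and 6 held it. The motif was chosen after the genes were known, and a match is a description of letters only. The 150 bases before the start are given 5′ to 3′ with the motif in capitals, which reads TTTC in place of GAAA where it lies on the other strand. Gbp7, a guanylate-binding GTPase (450, 959 and 114.8 CPM), lies at chr3:142530186-142530335 on the plus strand. Irgm1, an immunity-related GTPase (405, 739 and 91.4 CPM), lies at chr11:48871421-48871570 on the minus strand. Bst2 (tetherin, 98.5, 170.8 and 13.5 CPM), which holds viruses at the cell surface, lies at chr8:71537473-71537622 on the minus strand.
Gbp7: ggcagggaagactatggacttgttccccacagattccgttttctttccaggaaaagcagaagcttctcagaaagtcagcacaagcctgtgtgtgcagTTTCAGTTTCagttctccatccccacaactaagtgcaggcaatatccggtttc
Irgm1: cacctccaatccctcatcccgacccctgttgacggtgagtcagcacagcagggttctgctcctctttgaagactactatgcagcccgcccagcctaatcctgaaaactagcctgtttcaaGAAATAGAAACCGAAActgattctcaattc
Bst2: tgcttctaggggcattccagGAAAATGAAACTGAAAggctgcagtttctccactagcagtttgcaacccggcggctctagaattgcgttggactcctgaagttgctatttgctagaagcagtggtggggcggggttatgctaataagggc
In Irgm1 and Bst2 the capitals hold 2 overlapping copies of the motif, and in Gbp7 they hold 1 copy on the other strand. Of the 13 genes of the B lineage group 8 matched the table, also with 13 promoters. Among these TCCCNNGGG, a core of the Ebf1 site, lay in 2 of 13 promoters (15.4%, against 6.56% of all), those of Ablim1 and Foxo1, and CANCTG, the E-box bound by E proteins, in 8 of 13 (61.5%, against 51.4%).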

How the data were processed

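The authors deposited raw read counts per gene and cell with gene lengths. The submitters' processing notes name the mm9 build and R 3.2.0, and no source used here names the aligner, counter or strand setting. The series' design text tells of 178 captured Ly6D+ cells, of which those with under 60% mapped reads, too few counts or under 800 genes were left out. No doublets were called. Libraries have no molecular identifiers. Of 23427 genes, 23334 took symbols from RefSeq (GRCm38.p6). An unnamed row held 0.8125% of reads and was kept.

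Each cell was thinned to 200000 reads (Python 3.11.15, numpy 2.4.6, scipy 1.17.1), and chip means, shares, CV and Spearman rho were computed, after checks on simulated data. TPM used the deposited lengths. R 4.3.3 with scran 1.30.0 gave alternative size factors. No test was run, since no comparison has independent groups. Members, lists and rules were chosen with earlier results of these data known. Named genes were the markers, the 15 most abundant, the 10 most even, list members in 20% of cells, the first 15 on-off and chip genes, the top pairs and the partners of marker genes. A few genes are not reported here. Others named, the group counts, the plasmacytoid counts without Irf7 and Bst2 and the motifs were chosen after values were seen.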

Additional observations from a re-analysis of the deposited data

How the results depend on the processing

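Under 23 alternative settings, 35 of the recomputed values moved by more than the spread of the chips or, for counts, 1.5 times. Most of the recomputed values stayed within these limits. Of all of them 0 turned sign, but only the values of rho could do so. The others are counts, means or percentages and cannot be negative. Genes per cell were 3564 at a limit of 1 read and 1740 at 20. The even genes, 0.891% of the 12352 detected, were 0.899% to 1.46% with a chip left out, 1.39% and 0.364% at limits of 1 and 20 reads, and 1.57% and 0.259% at 90% and 100% of cells. Ribosomal genes among the 50 highest were 8 without division by length, and receptors in 50% of cells were 25 at 1 read. On-off genes numbered 29 to 43 with a chip left out, 3 at 1 read, 417 at 20 reads, 711 and 1 at high limits of 100 and 500 CPM, and 75 at under 20% between. Chosen pairs numbered 1646 to 2820 with a chip left out, 1374 at 20 reads, 1089 with genes per cell held constant and 816 at rho of 0.5. Their median on the chip held out was 0.268 to 0.4219 with a chip left out and 0.4884 at rho of 0.5. Genes that differed between chips numbered 6 to 27 with a chip left out, 22 at 200 CPM, 18 at 8-fold and 67 by medians over cells, 16 of them shared. Apart from the settings that only tighten or loosen a limit or leave out cells, the cause was not tested. The scran and all-reads settings also dropped the thinning. Reads thinned to 200000 limit what is seen of genes under 25 CPM. No paired analysis was possible because the chips carry no number shared between groups and no result comes from a test.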

Other observations

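The genes of interleukin 7 signalling and survival were present in part. Jak1, the kinase bound to Il7r, was detected in 80%, 70% and 82.7% of cells on chips 4, 5 and 6, while Jak3, its partner on Il2rg, was detected in 7.5%, 6.67% and 7.69%. Stat5a and Stat5b, the factors they activate, were detected in 23.9% ± 7.45 and 14.9% ± 2.40 of cells (SD, n = 3). Socs2, a feedback inhibitor, was detected in 35%, 23.3% and 11.5%, highest on chip 4 and lowest on chip 6. Of the survival genes Mcl1 was detected in 63.4% ± 8.72 and Bcl2 in 52.8% ± 9.55. Bcl2l1, the third member of that family, was detected in 30%, 10% and 3.85% of cells, likewise highest on chip 4 and lowest on chip 6. Among 12 immediate early and heat shock genes 7 reached 50% of cells, with Btg2 at 90%, 80% and 86.5% and Zfp36 at 82.5%, 75% and 88.5%, while Hspa1a was detected only on chip 5, in 5% of its cells.

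Some pairs of very high rho were genes with shared sequence or shared ground. On both chips 4 and 5, 23 pairs had rho of 0.9 or more. Hmga1 with Hmga1b had 0.982, 0.989 and 0.984 on chips 4, 5 and 6, and Akr1b3 with Gm6644 had 0.977, 0.977 and 0.968. No source used here says how the reads of such copies were divided.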
